A study of Mus musculus with 9 samples.

Results

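The RNA signals of 8 genes of insulin-like growth factor (IGF) signalling were compared in mouse embryonic fibroblasts: the ligand Igf1, the receptor Igf1r and the binding proteins Igfbp2, Igfbp3, Igfbp4, Igfbp5, Igfbp6 and Igfbp7. They were taken by symbol from the annotation of the array, which names 18193 genes singly, and carried 24 probe sets. Each gene was read from its brightest probe set, and 6 of the 8 reached the minimum mean signal of 100 needed for testing, as did 10177 genes in all. The cells were spontaneously immortalised fibroblasts from mid-gestation (E13.5) embryos, from a Suv420h1 -/- line and from a wild-type line. The knockout line was measured with a Suv420h1-GFP fusion put back (1 array, "reconstituted"), and, as the null group, untransduced and with GFP (2 arrays). The wild-type line carried lentiviral PREX2 with a stop codon (K278*, E824* or Q1430*, 3 arrays), full-length PREX2 (1 array), or the control vectors GFP and LacZ (2 arrays). Suv420h1, gene symbol Kmt5b, is a histone H4 methyltransferase, and PREX2 is a protein that activates the small GTPase Rac. All 9 arrays are of cultured cells of these 2 lines, so the loss of Suv420h1 and any other difference between the lines cannot be told apart. The number of arrays limits the precision, no construct was repeated, and the labels do not say that arrays of a group were separate cultures. The p-values therefore describe the spread between these arrays alone, which includes differences between the constructs within a group and may in part be technical.

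IGF1 and IGF2 are secreted growth factors that act through the receptor tyrosine kinase IGF1R, whose substrates pass the signal to PI3 kinase and AKT. Binding proteins in the fluid around cells hold the ligands away from the receptor or deliver them to it, and proteases release the ligand by cutting them. Fibroblasts make several of these binding proteins, and IGFBP7 differs from the rest in its low affinity for IGF1 and IGF2.

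The start regions of the genes whose signals differed most between arrays are shown to set the pair that separated the lines, Igfbp6 and Igfbp7, beside the trio that moved together within the wild-type line, Igf1, Igfbp3 and Igfbp4. Each runs from 250 bases before to 50 bases after a start, 5′ to 3′ on the gene's strand, and comes from RefSeq on GRCm38.p6, in which all 8 genes matched. Capitals mark a TATA-like element (TATAAA or TATATA, which may overlap), a GC box (GGGCGG) or a CCAAT box, each searched on both strands.
Igf1: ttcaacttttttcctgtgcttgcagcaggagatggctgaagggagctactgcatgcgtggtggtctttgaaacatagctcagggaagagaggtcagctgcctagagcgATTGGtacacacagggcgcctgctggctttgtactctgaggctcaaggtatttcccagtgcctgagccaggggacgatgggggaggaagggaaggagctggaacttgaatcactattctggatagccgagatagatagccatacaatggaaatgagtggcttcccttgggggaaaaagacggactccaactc
Igfbp3: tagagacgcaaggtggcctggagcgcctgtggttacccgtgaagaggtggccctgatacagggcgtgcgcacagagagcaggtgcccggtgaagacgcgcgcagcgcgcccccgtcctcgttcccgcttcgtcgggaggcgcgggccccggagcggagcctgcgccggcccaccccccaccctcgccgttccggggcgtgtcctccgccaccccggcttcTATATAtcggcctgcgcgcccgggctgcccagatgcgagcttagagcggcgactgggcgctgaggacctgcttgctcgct
Igfbp4: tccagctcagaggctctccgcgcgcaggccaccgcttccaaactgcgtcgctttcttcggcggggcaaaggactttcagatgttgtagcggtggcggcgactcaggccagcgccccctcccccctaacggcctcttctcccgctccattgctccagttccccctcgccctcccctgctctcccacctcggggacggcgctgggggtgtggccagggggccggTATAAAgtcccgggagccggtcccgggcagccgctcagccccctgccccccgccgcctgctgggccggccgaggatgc
Igfbp6: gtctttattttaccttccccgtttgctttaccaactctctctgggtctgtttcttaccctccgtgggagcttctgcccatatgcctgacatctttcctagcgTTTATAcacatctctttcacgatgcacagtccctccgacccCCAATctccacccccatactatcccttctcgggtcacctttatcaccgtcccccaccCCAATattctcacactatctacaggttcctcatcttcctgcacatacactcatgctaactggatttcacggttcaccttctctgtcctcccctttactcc
Igfbp7: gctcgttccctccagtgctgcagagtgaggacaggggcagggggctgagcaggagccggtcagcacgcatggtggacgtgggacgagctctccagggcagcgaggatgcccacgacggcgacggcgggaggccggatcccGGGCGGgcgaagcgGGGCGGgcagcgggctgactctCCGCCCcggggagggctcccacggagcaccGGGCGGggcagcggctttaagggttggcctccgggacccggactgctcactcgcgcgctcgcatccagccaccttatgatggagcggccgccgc
These windows lie at chr10:87860861-87861160 on the plus strand for Igf1, chr11:7213874-7214173 on the minus strand for Igfbp3, chr11:99040994-99041293 on the plus strand for Igfbp4, chr15:102143936-102144235 on the plus strand for Igfbp6 and chr5:77407996-77408295 on the minus strand for Igfbp7. For Igf1, Igfbp3 and Igfbp4 the start used lies inside the interval RefSeq gives for the gene, so a further start may exist. Igfbp3 had TATATA 30 bases and Igfbp4 TATAAA 28 bases before the start. Igf1 had a CCAAT box 142 bases before it and neither TATA-like element. Igfbp7 had 4 GC boxes and 33 CpG dinucleotides, whereas Igfbp6 had 8 CpG, no GC box, 2 CCAAT boxes and a TATAAA 148 bases upstream on the opposite strand. Igfbp3 held 37 CpG, Igfbp4 27 and Igf1 6, against a median of 7 over all 32851 windows of this length. Over those windows, 13.6% held TATAAA, 5.67% TATATA, 35.7% the GC box and 37.4% CCAAT. The letters set apart neither the pair nor the trio, since neither group shared 1 motif in all its members.

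The arrays were checked before the comparisons. Kmt5b had 5 probe sets, of which the probe set that reads the lowest null signals (mean signal 117.5, singled out after its values were seen) gave 150.3 on the reconstituted array, 8.85 and 17.3 on the 2 null arrays and 118 to 182 on the wild-type-line arrays. The brightest Kmt5b probe set did not separate them, with 328 on the reconstituted array, 432 and 442 on the 2 null arrays and 295 to 469.6 in the wild-type line. Another was higher in the null line than with control vector (0.81, limma adjusted p = 0.0398). The stretch of transcript under each probe set was not known here, and probes that lie beyond the deletion cannot check it. The GFP array of the wild-type line stood apart from the other 5 of its line, at -59.6 on the second principal component (17.8% of the variance) against -19.4 to 30.7. All 18 fibroblast markers listed were measured brightly enough to test, and their summed signal was 185940 to 205127 on the 3 null-line arrays and 191107 to 269860 on the wild-type-line arrays. In cultures measured in bulk, fewer cells that express a gene and less RNA per cell cannot be told apart.

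Igfbp6 and Igfbp7 were the binding proteins that differed most firmly between the lines: in the null line Igfbp6 was 5.22-fold and Igfbp7 2.27-fold lower than with control vector. The receptor Igf1r was higher in the null line, by less than 2-fold. Igfbp4 was lower over the null-line arrays but varied widely within the wild-type line, and the lines overlapped on 3 of its 5 tested probe sets. Igf1 and Igfbp3 varied over a wider range within that line, and their lines overlapped too.

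**Figure D1:**
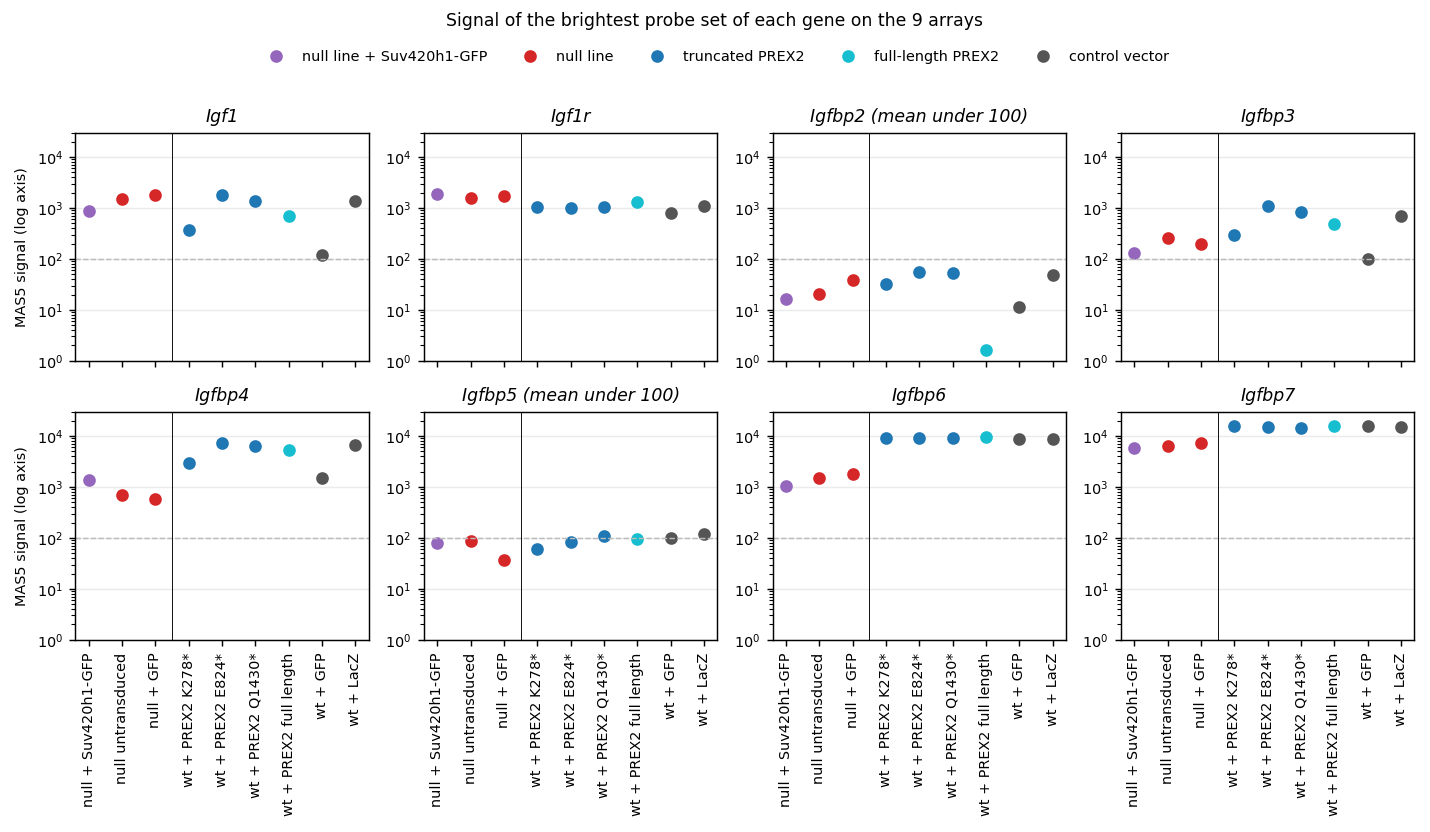
MAS5 signal (log axis) of the brightest probe set of each of the 8 genes on each of the 9 arrays, 1 point an array, coloured by group; the vertical line separates null-line from wild-type-line arrays and the dashed line is the minimum mean signal of 100. Igfbp6 and Igfbp7 form separate levels by line, whereas Igf1, Igfbp3 and Igfbp4 spread over the wild-type-line arrays.

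Igf1 encodes the secreted ligand. Its signal was 876 on the reconstituted array and 1535 and 1806 on the null arrays. In the wild-type line it was 373, 1789 and 1365 with K278*, E824* and Q1430*, 694 with full-length PREX2, and 120.1 with GFP and 1393 with LacZ. The lines overlapped, because the wild-type line alone spanned 14.9-fold between its lowest and highest array. The null line exceeded control vector by a log2 difference of 1.90 (SE 1.06, 2 against 2 arrays), which did not pass (limma, Benjamini-Hochberg adjusted p = 0.249), and this value was 0.25 without the GFP control array and 3.54 without the LacZ array (adjusted p = 0.0201). Over the 3 null-line and 6 wild-type-line arrays it was 0.91 (SE 0.695, adjusted p = 0.314). All 4 Igf1 probe sets were tested, and in the null line against control vector they ran from 1.90 to 2.17, none of them past the threshold.

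Igf1r encodes the receptor for both IGFs. It read 1917 on the reconstituted array and 1572 and 1706 on the null arrays. The wild-type line read 1056, 982 and 1067 with K278*, E824* and Q1430*, 1283 with full-length PREX2, and 794 with GFP and 1070.4 with LacZ. All 3 null-line arrays lay above all 6 wild-type-line arrays on this probe set, while on the dimmest tested Igf1r probe set the lines overlapped. Against control vector the null line was higher by 0.81 on the log2 scale (SE 0.165, 1.75-fold, limma adjusted p = 0.0152), and over all arrays of the 2 lines by 0.73 (SE 0.133, adjusted p = 0.00128). The call against control vector was lost without the untransduced null array (0.87, adjusted p = 0.0788), without the GFP null array (0.75, adjusted p = 0.118) and with the compared groups fitted alone (adjusted p = 0.0683), whereas that over all arrays held in all 9 fits that each left out an array. In the null line against control vector, the next brightest Igf1r probe set (mean signal 1181) was at 0.44 (adjusted p = 0.0567). The dimmest one tested (mean signal 414) was at 0.30 (adjusted p = 0.281). Without either null array far fewer of all tested genes passed against control vector, so a call lost there is not particular to Igf1r.

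Igfbp3 encodes the main carrier of IGFs in blood, which in tissues can also restrain growth. It read 129 on the reconstituted array and 252 and 199 on the null arrays. In the wild-type line it read 297, 1076 and 854 with K278*, E824* and Q1430*, 485 with full-length PREX2, and 101 with GFP and 711 with LacZ. All wild-type-line arrays but the GFP array were above every null-line array, and the GFP array was below them all. The null line therefore differed from control vector by -0.29 (SE 0.837, limma adjusted p = 0.840), a value that was -1.56 without the GFP array and 0.98 without the LacZ array. Over all arrays of the lines the difference was -1.22 (SE 0.575, adjusted p = 0.110), and with the wild-type GFP array left out it was -1.62 and passed (adjusted p = 0.0024). The other tested Igfbp3 probe set (mean signal 272) passed in neither comparison. In limma it was at -0.28 against control vector (adjusted p = 0.819) and -1.02 over all arrays (adjusted p = 0.119).

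Igfbp4 encodes a binding protein that mostly holds IGF away from its receptor and is a substrate of the protease PAPP-A. Its signal was 1375 on the reconstituted array and 702 and 569.5 on the null arrays. In the wild-type line it was 2984, 7205 and 6453 with K278*, E824* and Q1430*, 5378 with full-length PREX2, and 1534 with GFP and 6795 with LacZ. On this probe set the lines did not overlap, though the reconstituted and the wild-type GFP array were close. Of the other 4 tested probe sets 1 also kept the lines apart, and 3 had the reconstituted array above the wild-type GFP array (1211 against 659, 588 against 425 and 145 against 139). On the first of these the reconstituted array was also above K278* (1192). On the second the GFP null array (452) was also above the wild-type GFP array. Over all arrays Igfbp4 fell by 2.41 on the log2 scale in the null line (SE 0.471, limma adjusted p = 0.00193), and all 5 tested probe sets passed in that comparison, at -1.01 to -2.51. With no minimum on signal, 2 of those 5 missed (adjusted p = 0.0503 and 0.0542). Against control vector alone the difference of -2.31 (SE 0.672) missed the threshold (adjusted p = 0.0502), while the probe set with a mean signal of 1339.8 was past it (-2.43, adjusted p = 0.0487) and the other 3 were not (-1.84, -0.88 and -1.47, adjusted p = 0.243, 0.281 and 0.112). That difference was -3.38 without the GFP control array (adjusted p = 0.00549) and -1.25 without the LacZ array (adjusted p = 0.103).

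Igfbp6 encodes a binding protein with a preference for IGF2. It read 1062 on the reconstituted array and 1514 and 1836 on the null arrays. On the wild-type-line arrays it read 9072, 9365 and 9229 with K278*, E824* and Q1430*, 9789.8 with full-length PREX2, and 8821 with GFP and 8790.2 with LacZ. The wild-type line spanned only 1.11-fold from lowest to highest array, and the highest null-line array was far below all of it. The null line was 5.22-fold lower than control vector (log2 change -2.38, SE 0.120, limma adjusted p = 5.29e-05), and 6.30-fold lower over all arrays of the lines (-2.65, SE 0.135, adjusted p = 1.80e-07). The gene has 1 probe set here, and leaving out any array kept the first value between -2.52 and -2.25.

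Igfbp7 encodes the secreted low-affinity member. It read 5745 on the reconstituted array and 6388 and 7350.1 on the null arrays. On the wild-type-line arrays it read 15484, 15282 and 14617 with K278*, E824* and Q1430*, 15566 with full-length PREX2, and 15826 with GFP and 15409 with LacZ. The 6 wild-type-line arrays lay within 1.08-fold of each other, and the null line was 2.27-fold lower than control vector (log2 change -1.19, SE 0.102, limma adjusted p = 0.000504). Over all arrays it was 2.37-fold lower (-1.25, SE 0.0746, adjusted p = 5.54e-07). A dimmer probe set, with a mean signal of 197, differed by -0.94 from control vector (adjusted p = 0.0121).

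Igfbp2 and Igfbp5, whose proteins bind IGFs and, for IGFBP5, also the matrix, were too dim to test. Igfbp2 read 16.4 on the reconstituted array, 20.3 and 38.4 on the null arrays and 1.66 to 54.8 on the wild-type-line arrays, so the lines overlapped. The brightest Igfbp5 probe set read 80.2 on the reconstituted array, 88.2 and 37.1 on the null arrays and 60.2 to 122 on the wild-type-line arrays, also overlapping. The other Igfbp5 probe set (mean signal 53.9) read 1.22, 16.9 and 4.16 on the null-line arrays and 30.9 to 127 on the wild-type-line arrays, with no overlap. With no minimum on signal it differed by -1.61 over all arrays of the lines (limma adjusted p = 0.00284) and by -1.40 between null and control vector (adjusted p = 0.144), and the brighter probe set by -0.39 over all arrays (adjusted p = 0.313).

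Against control vector, 3 of the 6 tested genes passed, Igf1r upward and Igfbp6 and Igfbp7 downward, where 20.3% of all 10177 tested genes passed, 10.2% higher and 10% lower. Over all arrays of the lines, 4 of 6 passed, with Igfbp4 added, where 43.9% of all tested genes passed, 20.7% higher and 23.2% lower. The median log2 difference of the 6 genes was -0.74 against control vector and -1.23 over all arrays, and that of all tested genes -0.03 and -0.02. Both comparisons use the same null arrays and are not independent.

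**Figure D2:**
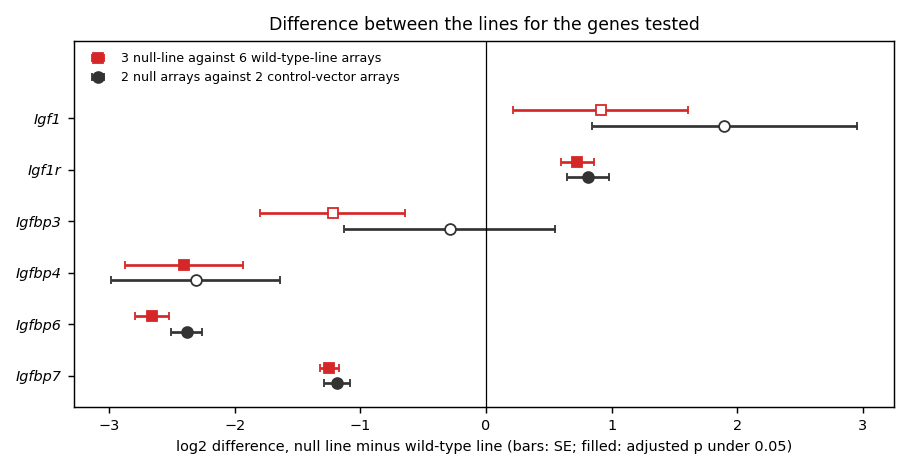
Log2 difference of the 6 tested genes, null line minus wild-type line, with bars of 1 SE; squares compare 3 null-line with 6 wild-type-line arrays and circles 2 null with 2 control-vector arrays, filled where the adjusted p is under 0.05. Igfbp6 and Igfbp7 have short bars far below 0, and Igf1 and Igfbp3 have open symbols with the longest bars.

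Putting Suv420h1-GFP back was compared with the 2 null arrays to ask whether these levels move towards the wild-type line. None of the 6 genes passed, where 0% of all tested genes did. In limma 337 genes, or 3.31% of all tested, had an unadjusted p under 0.05, Igfbp6 being the member among them (unadjusted p = 0.00299). Igfbp6 was 1062 on the reconstituted array and 1514 and 1836 on the null arrays, a log2 difference of -0.64 (SE 0.147, adjusted p = 0.999932), which is further from the wild-type-line level. Igfbp7 was also lower than on both null arrays (-0.25, SE 0.125), as were Igf1 (-0.91, SE 1.29) and Igfbp3 (-0.69, SE 1.03). Igfbp4 was higher, at 1375 against 702 and 569.5 (1.09, SE 0.822), and Igf1r differed by 0.22 (SE 0.203). With the 3 arrays of this comparison fitted alone, Igf1 and Igfbp4 passed (SE 0.156 and 0.174, adjusted p = 0.0114 and 0.00683), since the spread of the wild-type-line arrays no longer entered; the spread then rests on the 2 null arrays.

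PREX2 constructs were compared with the control vectors and with each other in the wild-type line. None of the 6 genes passed in any of the 3 comparisons. Of all tested genes, 0.00983% (1 gene) passed with truncated PREX2 and 0% with full-length PREX2, each set against the control vectors, and 0% between truncated and full-length PREX2. At an unadjusted p under 0.05 in limma the 3 comparisons held 2.73%, 1.12% and 1.03% of all tested genes, in that order, and 0 of the 6. Truncated PREX2 differed from control vector by 1.14 for Igf1 (SE 0.964), 1.15 for Igfbp3 (SE 0.764) and 0.67 for Igfbp4 (SE 0.613), each with an adjusted p of 0.844. Without the GFP control array those 3 values were -0.50, -0.12 and -0.39. Full-length PREX2 differed from control vector by 0.66, 0.74 and 0.73 for the same genes, and without the GFP array by -0.98, -0.53 and -0.34 (adjusted p = 0.9999 for each). The 3 comparisons share arrays.

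Within the wild-type line, Igf1, Igfbp3 and Igfbp4 nonetheless moved together across constructs. Igf1 and Igfbp4 had the same order of the 6 arrays. It ran from GFP at the bottom through K278*, full-length PREX2, Q1430* and LacZ to E824* at the top. Igfbp3 differed from it only in that LacZ and Q1430* changed places. The second principal component over all tested probe sets, with 17.8% of the variance, had the same order as Igfbp3. That component was -59.6 with GFP, -19.4 with K278*, 3.8 with full-length PREX2, 15.7 with LacZ, 21.9 with Q1430* and 30.7 with E824*. This order was therefore not particular to Igf1, Igfbp3 and Igfbp4, and the share of genes that follow it was not counted. Over these 6 arrays Pearson's r was 0.995 between Igf1 and Igfbp3, 0.986 between Igf1 and Igfbp4 and 0.982 between Igfbp3 and Igfbp4, a description of 6 arrays of 1 cell line. The 2 control vectors were far apart, with GFP lowest: LacZ minus GFP was 3.29 for Igf1, 2.54 for Igfbp3 and 2.13 for Igfbp4 on the log2 scale, the 21st, 51st and 92nd highest of 10177 genes. Igfbp6 and Igfbp7 did not share this, at -0.005 and -0.04 between LacZ and GFP, and Igf1r differed by 0.42. The 17 measured G1/S genes ran the other way, with a mean log2(signal + 25) of 11.14, 10.29 and 10.46 with K278*, E824* and Q1430*, 10.69 with full-length PREX2, and 11.43 with GFP and 10.62 with LacZ. Their order is that of Igfbp3 turned round, and their part in these values was not tested. On the null-line arrays that mean was 10.86 (reconstituted), 10.94 and 10.63. The summed fibroblast markers had the same order as Igf1 and Igfbp4, at 203230, 269860 and 255926 with K278*, E824* and Q1430*, 255240 with full-length PREX2, and 191107 with GFP and 264002 with LacZ, and their part was not tested either.

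**Figure D3:**
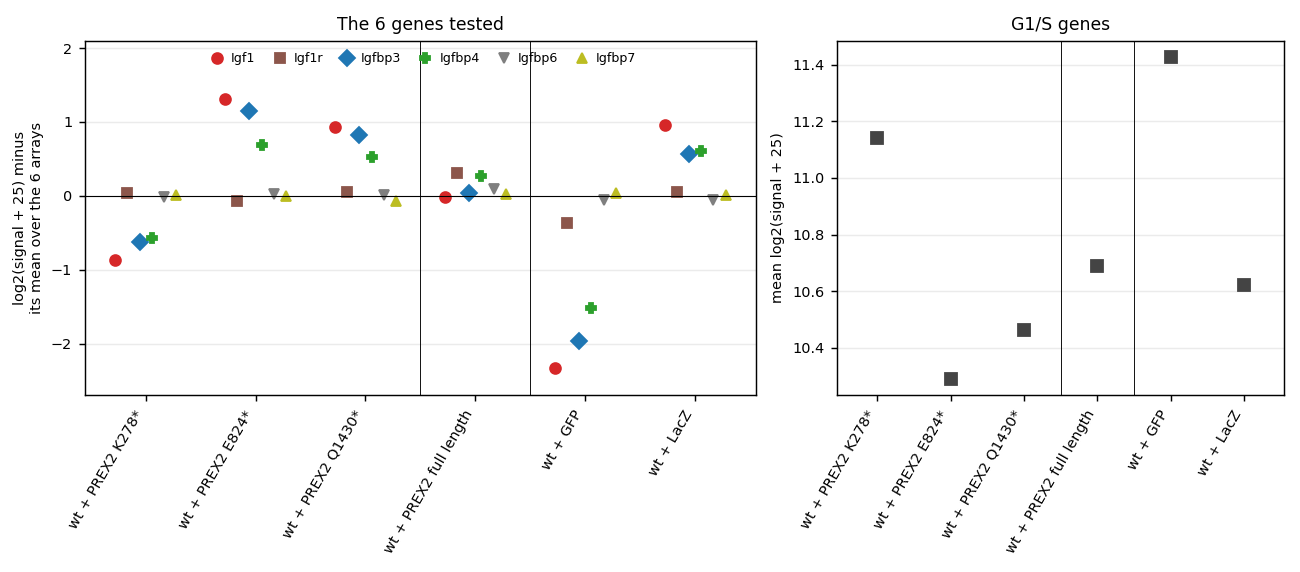
Left, log2(signal + 25) of the 6 tested genes on the 6 wild-type-line arrays, each minus its mean over those arrays; right, the mean log2(signal + 25) of the G1/S genes on the same arrays, with vertical lines between truncated PREX2, full-length PREX2 and control vector. Igf1, Igfbp3 and Igfbp4 are lowest with GFP and then K278*, where the G1/S mean is highest, while Igfbp6 and Igfbp7 stay near 0.

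Markers of other cell types were set beside the line differences. Without either null array far fewer of all tested genes passed against control vector, so calls lost there are not particular to these markers. The 5 neural markers summed to 237 to 434 on the null-line arrays and 1061 to 2227 on the wild-type-line arrays, and 2 of the 3 tested, Map2 and Tubb3, were lower in the null line against control vector, where 10% of all tested genes were. The 5 macrophage markers summed to 644 to 686 and 1072 to 1312 on the same arrays, with Csf1r of 3 tested lower. No neural and no macrophage marker passed without either null array, and 1 neural marker passed without the LacZ array. The 5 endothelial markers summed to 119 to 229 and 198 to 604, with 0 of 1 tested passing (1 lower without the GFP control array). Cartilage and bone markers summed to 916 to 1513 on the null-line arrays and 612 to 809 on the wild-type-line arrays, and 1 of 2 tested, Col2a1, was higher in the null line against control vector. The other, Sox9, did not pass there and was lower in the null line over all arrays. Epithelial markers summed to 471 to 559 and 584 to 641, with Krt19 of 2 tested lower (not without the GFP null array), and of 2 tested adipocyte markers Pparg was higher and Fabp4 lower. None of the 4 measured hepatocyte markers reached the minimum. Of the 18 fibroblast markers, 0 rose and 2, Twist2 and Thy1, fell in the null line against control vector. That count was 5 higher and 2 lower without the LacZ array, 0 and 4 without the wild-type GFP array, and 0 and 1 without either null array. Over all arrays of the lines Map2, Tubb3, Csf1r and Cd14 were lower, 2 neural and 2 macrophage markers whichever array was left out. The endothelial Tek was lower too, but not without the untransduced null or the reconstituted array. Of the fibroblast markers 0 rose and 5 fell over all arrays, and 3 to 10 fell with an array left out. Of all tested genes 20.7% were higher there and 23.2% lower. The part of these markers in the values of Igfbp4, Igfbp6 and Igfbp7 was not tested.

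The rest of the IGF axis was counted from lists of genes by role. As for the markers, calls lost without either null array are read beside the fall in calls over all genes in those fits. Of 11 other ligands, receptors and binding proteins, 10 were measured and 4 tested, and 2 rose in the null line against control vector, both receptors. Igf2r, which clears IGF2 from the surface, was 3168 on the reconstituted array, 2344 and 2475 on the null arrays and 1241 to 1713 on the wild-type-line arrays (log2 difference 0.86, SE 0.131, limma adjusted p = 0.00512). Insr, the insulin receptor, was 1029.9 on the reconstituted array, 767 and 833 on the null arrays and 281 to 499.6 on the wild-type-line arrays (1.04, SE 0.246, adjusted p = 0.0255). Igf1r, Igf2r and Insr all 3 had null-line arrays above all wild-type-line arrays on their brightest probe sets. Insr lost its call without either null array (adjusted p = 0.112 and 0.151) and Igf2r without the GFP null array (adjusted p = 0.0587). Kazald1, which carries a binding-protein domain, did not pass against control vector (adjusted p = 0.138) and passed over all arrays of the lines (0.96, adjusted p = 0.0187), a call that was lost without the reconstituted or the GFP null array. Igf2, the second ligand, read 82.5 on the reconstituted array and 84.2 and 106 on the null arrays, against 246, 937 and 571 with K278*, E824* and Q1430*, 353 with full-length PREX2, and 13.4 with GFP and 835 with LacZ. The wild-type-line order of Igf2 is that of Igf1 and Igfbp4, with GFP lowest and E824* highest, and its line difference did not pass (-0.60, SE 1.27, adjusted p = 0.778). Insrr, Ins2, Igfbp1, Igfbpl1, Igfals and Esm1 were below the minimum, with mean signals of 6.18 to 63.9, and Ins1 was not analysed here.

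Among proteases of binding proteins and their inhibitors, those that passed against control vector were lower in the null line. Of 13 listed, 12 were measured and 11 tested, and 0 rose and 4 fell against control vector. Pappa, the protease of IGFBP4, read 26.6 on the reconstituted array, 42.5 and 82.9 on the null arrays and 381 to 1089.8 on the wild-type-line arrays (-2.98, SE 0.441, limma adjusted p = 0.00459). Stc1 and Stc2 encode inhibitors of PAPP-A and fell with it, by 2.55 (adjusted p = 0.0181) and 0.91 (adjusted p = 0.0391) on the log2 scale. Htra1, a secreted serine protease, read 311 on the reconstituted array, 351 and 369 on the null arrays and 2728 to 4129 on the wild-type-line arrays (-3.14, SE 0.199, adjusted p = 0.000138). Pappa and Htra1 passed in all 4 fits that left out a null or control-vector array, while Stc1 was lost without either null array and Stc2 in all 4 of them. Over all arrays of the lines 1 rose, Adam9 (0.45, limma adjusted p = 0.0114), and 5 fell, where 20.7% of all tested genes rose and 23.2% fell. Pappa, Stc1, Stc2, Htra1 and Adam9 passed there whichever array was left out, and the remaining gene lost its call in some of those fits.

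Downstream of the receptor, 34 genes were listed, 32 measured and 31 tested, and 3 rose and 2 fell against control vector. Of all tested genes 10.2% were higher there and 10% lower, so neither count exceeded the share of all genes. Irs2 (1.41, limma adjusted p = 0.0309), Gab1 (1.13, adjusted p = 0.0224) and Irs1 (0.99, adjusted p = 0.0241), docking proteins of the insulin and IGF receptors, were higher in the null line. Grb14, an adaptor that inhibits the insulin receptor, fell by 3.15 (adjusted p = 3.52e-05), at 219 on the reconstituted array, 192 and 179 on the null arrays and 1657 to 1928 on the wild-type-line arrays. Socs2, a feedback inhibitor of growth hormone signalling, fell by 3.10 (adjusted p = 0.00567), at 124 on the reconstituted array, 156 and 191 on the null arrays and 1036 to 3246 on the wild-type-line arrays. The increases of Irs1, Irs2 and Gab1 were lost without either null array and without the GFP control array, that of Irs2 also without the LacZ array, whereas Grb14 passed in all 4 fits with 1 array of the comparison left out and Socs2 missed in 1 of them (adjusted p = 0.0506). Over all arrays 8 rose and 6 fell, or 14 of 31, close to the 43.9% of all tested genes that passed there, and the 8 were 3 without the GFP null array, 4 without the reconstituted array and 5 without the LacZ, full-length, K278* or E824* array. Irs1, Irs2, Gab1, Grb14 and Socs2 passed over all arrays whichever array was left out. The list was led by Socs2 (-3.58), Grb14 (-3.07), Irs2 (1.60) and the PI3 kinase subunit Pik3cb (1.02). Pik3cb did not pass without either null array of the null group.

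Of 10 surface and matrix partners of binding proteins, 8 were tested, and 2 rose and 0 fell against control vector. Lrp1, an endocytic receptor to which IGFBP3 binds, differed by 0.79 (SE 0.134, limma adjusted p = 0.00746), and the integrin subunit Itgb1 by 0.51 (SE 0.112, adjusted p = 0.0196). Both were lost without the GFP null array and Itgb1 also without the untransduced one. Lrp1 and Itgb1 passed over all arrays whichever array was left out. Over all arrays Itgav (0.48, adjusted p = 0.00258) rose too and Tmem219, which encodes a receptor of IGFBP3, fell by 0.53 (adjusted p = 0.0300), a call lost in 5 of the 9 fits with an array left out. No gene of these 4 lists passed in the reconstituted, full-length or truncated PREX2 comparisons. The lists were chosen with results of these data known, and their counts are read beside the 10.2% of genes higher and 10% lower in the null line against control vector, or the 20.7% and 23.2% over all arrays.

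**Figure D4:**
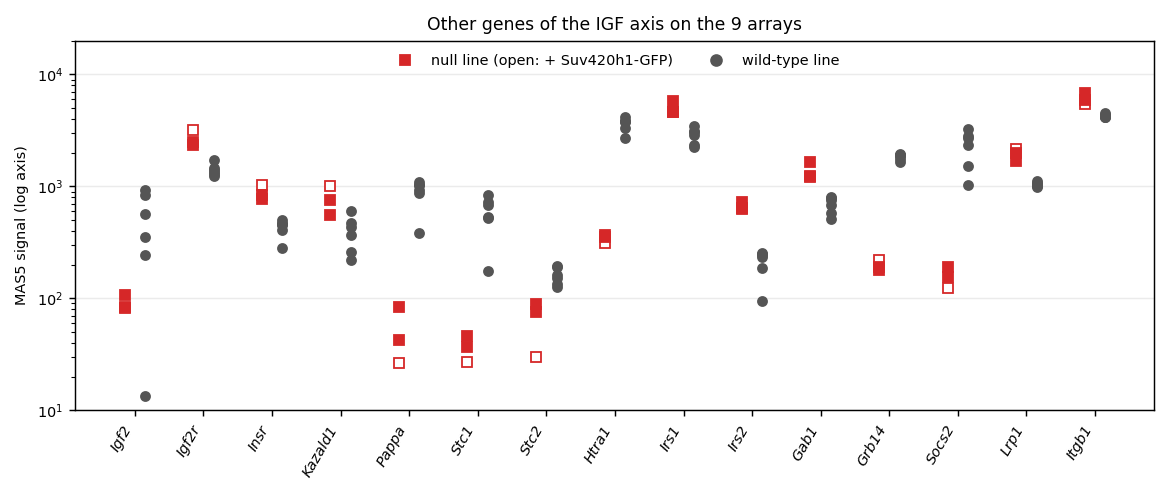
MAS5 signal (log axis) of 15 other genes of the IGF axis, 1 point an array; squares are the 3 null-line arrays (open, reconstituted) and circles the 6 wild-type-line arrays. Igf2r, Insr, Irs1, Irs2, Lrp1 and Itgb1 have their squares above their circles, and Pappa, Stc1, Stc2, Htra1, Grb14 and Socs2 have them below.

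For each tested gene, the 2 genes most like it were found by Pearson's r of log2(signal + 25) over the 9 arrays, which fall into 2 lines and are not independent points. Igfbp6 and Igfbp7 were each other's closest match (r = 0.997), followed by Serpinf1 for Igfbp6 (0.997) and Rnf11 for Igfbp7 (0.995). Over the 6 wild-type-line arrays alone, Igfbp6 and Igfbp7 were at r = -0.17, so their likeness lay between the lines. For Igf1 the closest were Clu, a secreted chaperone (0.994), and Mfap5, a microfibril protein (0.986), and both kept r of 0.998 and 0.986 within the wild-type line. Igfbp3 was closest to Prrg1 (0.985) and Aldh1a7 (0.983), Igfbp4 to Dnajc30 (0.994) and Nrbp2 (0.993), and Igf1r to Tmem141 (0.983) and Usp53 (0.973).

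The genes lie on 6 chromosomes, with 2 close pairs of binding proteins in the genome. Igfbp2 and Igfbp5 are 5591 bases apart on chromosome 1, and Igfbp3 lies 3540 bases from Igfbp1 on chromosome 11 (GRCm38.p6). All 3 of Igfbp1, Igfbp2 and Igfbp5 had a mean signal under 100. The nearest tested protein-coding genes on either side did not pass against control vector for any of the 8, where 20.3% of all tested genes did. Not all of them lie close: Cenpc1 is 8603973 bases from Igfbp7 and Tns3 1216154 bases from Igfbp3. Spryd3 and Csad beside Igfbp6 differed by 0.12 (limma adjusted p = 0.705) and -0.17 (adjusted p = 0.802), and Polr2b, whose interval overlaps that of Igfbp7, by -0.35 (adjusted p = 0.112). Over all arrays of the lines, the nearest tested genes of Igf1r, Ttc23 and Arrdc4 (-0.46 and -0.95), passed, at 223635 and 503326 bases from it. Rpl37a, nearest before Igfbp2 and Igfbp5 (-0.22), and Adcy1, nearest before Igfbp3 (0.46), passed too. Of all tested genes 43.9% passed in that comparison. The neighbours of Igf1r were lower where Igf1r itself was higher.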

How the data were processed

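Total RNA of 9 samples was hybridised to Affymetrix mouse arrays. The authors deposited 1 table of linear intensity values, made with MAS5 per the submitters' processing notes, with version and scaling target not given in the sources used here. After trimming 2% from each end the mean was 500.003 or 500.004 on every array, with medians of 56.4 to 68.9. Of 45101 probe sets, 64 controls were left out, and genes were named from the platform annotation only for the 34945 probe sets with 1 symbol. MAS5 detection calls were not used here, so a minimum mean signal of 100 stood for expression, which left 19090 probe sets.

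Signals were transformed as log2(signal + 25), so fold changes of dim genes are understated. The 5 group means were fitted with limma 3.58.1 (R 4.3.3) with an intensity trend and 4 residual degrees of freedom, and the 3 null-line against 6 wild-type-line arrays in a separate fit with 7. Groups of 1 array were taken to vary like the others. P-values were two-sided and adjusted by Benjamini-Hochberg over all tested probe sets of a comparison, with a threshold of 0.05. Probe sets of a gene were given singly and the brightest stood for the gene. All 8 genes were named, with up to 4 passing genes of each list and comparison, the 2 most like genes, and the nearest tested neighbours in RefSeq GRCm38.p6; the Kmt5b probe set and Irs1 fell outside this rule. The genes and lists were chosen with earlier results of these data known. Alternatives were other offsets and minimums, quantile normalization, no trend, the compared groups alone, the mean of the tested probe sets and each array left out. The fit was tested on simulated data of this design.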

Additional observations from a re-analysis of the deposited data

How the results depend on the processing

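Over 432 values of the 6 tested genes under alternatives, no called value changed direction. Offsets of 5 and 100, a minimum of 200 or none, no intensity trend and the mean of the tested probe sets changed no call of these genes; quantile normalization added Igfbp4 against control vector (-2.33, adjusted p = 0.0481). The compared groups alone gave 2 called genes for reconstituted against null, in place of 0, with 124 genes called in all. With 1 array left out, 2 to 4 of the 6 genes passed against control vector and 4 or 5 over all arrays, and 577 to 2516 genes passed in all against control vector, where 2061 did with every array. The 577 and 714 came without a null array, and 1030 with the compared groups alone. Values called in neither fit that changed sign had these lowest and highest values with 1 array left out: Igfbp3 against control vector in the null line, -1.56 and 0.98; for full-length PREX2 against control vector, Igf1 -0.98 and 2.31, Igfbp3 -0.53 and 2.01, Igfbp4 -0.34 and 1.79, and Igfbp7 -0.024 and 0.015; for truncated PREX2 against control vector, Igf1 -0.50 and 2.79, Igf1r -0.048 and 0.37, Igfbp3 -0.12 and 2.42, and Igfbp4 -0.39 and 1.74; for truncated against full-length PREX2, Igfbp4 -0.29 and 0.34. All but the last turned on the wild-type GFP or LacZ array, the last on K278*. The mean of the tested probe sets gave 0.0032 for Igfbp7 with full-length PREX2. The cause of these changes was not tested. No paired analysis was possible because the replicate numbers are accession order and the labels pair no arrays. Groups of 1 array cannot be left out of their own comparison. The 4 or 5 genes called over all arrays are read beside the 43.9% of all tested genes that passed there with every array. The share of all genes in each fit with 1 array left out is not given for that comparison. Igfbp2 and Igfbp5 were near the dim end of the arrays, where signal limits what can be seen.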
